A study of Mus musculus with 4 samples.

Results

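The response of wild-type primary mouse hepatocytes to fructose was described as the difference between 2 arrays of the 4 in the series, the array of wild-type (WT) cells given fructose minus the array of WT cells kept without it. Hepatocytes, the main cell type of the liver, came from male mice aged 2 months and were held in serum-free medium for 16 h, either with fructose at 25 mM (PMH_WT_Fructose) or with none (PMH_WT_Control). The other 2 arrays hold Chrebp-KO hepatocytes under the same conditions, which lack the transcription factor ChREBP (gene Mlxipl). They are used here for values set side by side and, with the WT arrays, for the level above which a gene counts as detected. For each group 400 ng of total RNA was turned into biotin-labelled cDNA and read on a whole-transcript array with 1 colour. The labels give no mouse strain, no number of animals or cultures behind an array and no sugar content of the control medium, and the extraction label speaks of liver RNA where the others name cultured cells. With 1 array in each group no difference has a replicate check, so genes are described by size and rank, with no test.

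Hepatocytes take up fructose and phosphorylate it with ketohexokinase, and the resulting trioses feed glycolysis, gluconeogenesis, glycogen and fatty acid synthesis. Sugar phosphates activate ChREBP, which binds carbohydrate response elements of lipogenic genes. Hepatocytes also fold and secrete most plasma proteins, and when unfolded proteins build up in the endoplasmic reticulum (ER) the sensors IRE1, ATF6 and PERK raise the genes of chaperones, ER-associated degradation and vesicle transport and, through ATF4, a set of stress genes.

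Levels are log2 expression values, and a log2 difference of 1 is a 2-fold change. A gene counted as detected when it lay above the background level of 4.76 on at least 1 of the WT arrays. Under this level lay 95% of 1105 olfactory receptor genes, taken as silent here, by their mean over the 4 arrays. Of 22180 genes with a value 10814 were detected, and 335 of them (3.10%) were at least 2-fold higher with fructose while 326 (3.01%) were at least 2-fold lower. Differences of 4-fold or more were found for 55 genes in the higher and 16 in the lower direction, and of 8-fold or more for 16 and 4. The median difference of detected genes was -0.03 and the SD across genes was 0.54, against 0.19 across the olfactory receptor genes, of which 2 were at least 2-fold apart. Across the same detected genes the SD of KO control minus WT control was 0.20.

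The share of genes at least 2-fold higher was 1.98% at a mean level below 6, 3.34% from 6 to 8, 4.12% from 8 to 10 and 3.70% above 10. The share at least 2-fold lower was 2.22%, 3.82%, 2.98% and 1.23% in the same ranges. Of the 335 higher genes, 40 lay below the background level without fructose, and of the 326 lower genes 44 lay below it with fructose, so their folds are lower bounds. For such genes the fold is taken against the background level and written as "at least". With those values raised to the background level, 314 higher and 300 lower genes were still at least 2-fold apart. Counts of list members past 2-fold use the differences as measured, and where raising dim values changes a count described here, that count is given beside it.

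**Figure D1:**
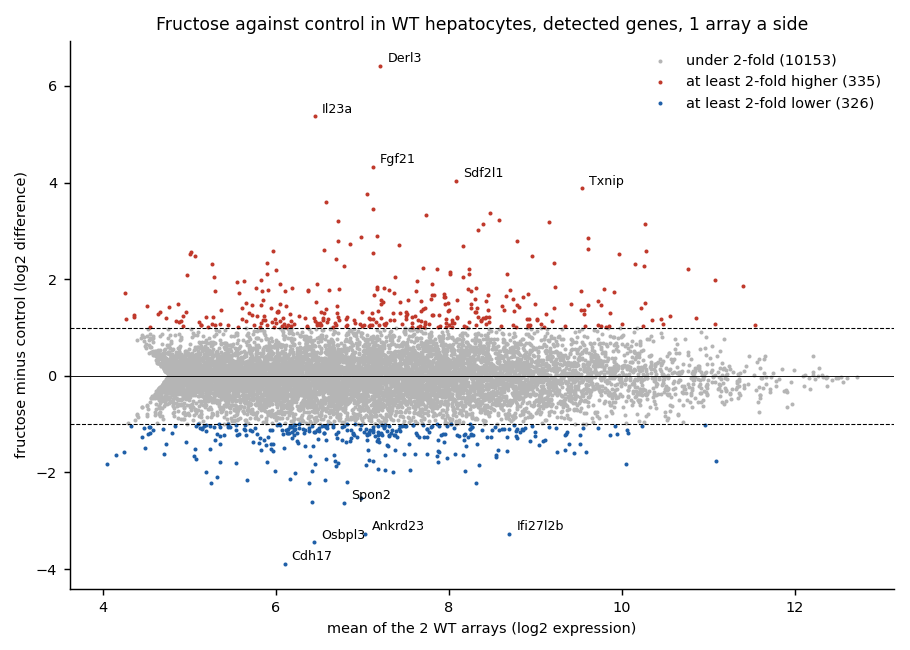
Log2 difference between the WT fructose and WT control arrays (vertical axis) against the mean log2 level of both (horizontal axis), 1 point per detected gene, with dashed lines at 2-fold and the 5 highest and 5 lowest genes named. The 335 higher genes reach a difference of 6.42 (Derl3) and the 326 lower genes reach -3.89 (Cdh17).

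Markers of hepatocytes were high on both arrays. Of 17 measured hepatocyte markers 15 were detected, Serpina1b and Ass1 lay below the background level, and the summed level of the list was 15.21 in control and 15.27 with fructose. Alb, serum albumin, lay at 12.63 and 12.58 and Ttr, transthyretin, at 12.30 and 12.32. Macrophage markers gave a sum of 12.07 in control and 11.61 with fructose, with 15 of 20 detected, among them Cd68 (11.04 and 10.79), Clec4f (5.64 and 5.92) and Adgre1 (4.62 and 5.13), and Vsig4 below the background level. Endothelial markers summed to 10.40 and 10.26 (14 of 20 detected, Stab2 below background), stellate cell markers to 9.19 and 8.86 (5 of 18, Des and Lrat below background) and cholangiocyte markers to 11.59 and 11.28 (3 of 11, Krt19, Krt7 and Epcam below background). Lymphocyte markers of the T and NK type had 3 of 14 detected, with Cd3e and Cd3g below background and a sum of 9.42 and 10.56, of which the chemokine gene Ccl5 (8.87 and 10.34) made up most. None of 9 B cell markers and none of 11 neutrophil markers was detected, and 1 of 6 erythroid and platelet markers was. In such bulk samples, fewer cells of a type and less RNA per cell cannot be told apart.

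Genes of protein folding, degradation and transport in the secretory pathway held many of the largest positive differences. The 8 lists of this pathway, written with earlier results of these data known, had 229 detected members, counted once each. Of these members 41 (17.9%) were at least 2-fold higher and 3 were at least 2-fold lower, beside 3.10% and 3.01% of all detected genes. Their median difference was 0.30 and 156 of the 229 lay above 0, whereas 47.5% of all detected genes did. Among Chrebp-KO arrays the same members had a median of 0.20, with 20 at least 2-fold higher.

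Chaperones and their partners had the highest median of these lists, 0.84 over 22 detected of 28 listed genes, with 11 at least 2-fold higher and 1 lower. Sdf2l1, an ER-resident partner of DnaJ co-chaperones, lay at 6.06 in control and 10.10 with fructose, a 16.4-fold difference. Hspa5, the ER Hsp70 known as BiP, lay at 9.53 and 10.92 (2.63-fold higher), and Hsp90b1, the ER Hsp90, at 10.47 and 12.32 (3.62-fold higher). Cochaperones of BiP were higher to different degrees, from Dnajb9 (8.99 and 11.58) through Dnajb11 (7.95 and 9.54) to Dnajc3 (9.03 and 10.50). Manf, a secreted ER protein, lay below the background level in control at 4.72 and at 6.43 with fructose, at least 3.17-fold higher. Cnpy2 was the member in the opposite direction, at 8.79 in control and 7.57 with fructose, 2.32-fold lower.

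Genes of ER-associated degradation, which moves misfolded proteins out of the ER for destruction by the proteasome, had a median of 0.34 and a mean of 0.63 over 31 detected of 33 listed genes, with 6 at least 2-fold higher and none lower. Derl3, a derlin of the retrotranslocation channel, lay at 4.0 in control, below the background level, and at 10.42 with fructose, at least 50.3-fold higher and the highest rank of all genes. Derl1, its broadly expressed relative, lay at 9.47 and 10.54 (2.10-fold higher). Both members of the core ubiquitin ligase were higher, Sel1l at 8.05 and 10.38 and Syvn1, the ligase HRD1, at 8.65 and 10.41. Herpud1, which assembles that complex, lay at 9.12 and 11.39 and Edem3, a mannosidase that marks glycoproteins for removal, at 7.50 and 9.10. The 39 detected proteasome genes had a median of -0.05 (0.01 with median centring), and none was at least 2-fold apart in either direction. At 3.10% higher and 3.01% lower among all detected genes, few would be in a list of this size.

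Oxidative folding genes had a median of 0.19 over 23 detected of 27 listed genes, with 5 at least 2-fold higher. Ero1b, an oxidase that recharges protein disulfide isomerases, lay at 6.59 and 8.81 (4.69-fold higher), and its relative Ero1a at 7.89 and 9.33 (2.71-fold higher). The isomerases P4hb (10.54 and 11.61) and Pdia6 (9.86 and 11.04) were 2.11-fold and 2.27-fold higher. Among sensors and factors of the unfolded protein response 7 of 17 detected genes were at least 2-fold higher, with a median of 0.44 (0.18 with no filter on dim genes) and a mean of 0.70. Ern1, which encodes the sensor IRE1, lay at 7.62 and 9.03, Atf6 at 9.20 and 10.25, and Xbp1, whose mRNA IRE1 splices, at 9.99 and 10.18. A level per gene does not separate spliced from unspliced Xbp1. Wfs1, a membrane protein of the ER, lay at 7.18 and 9.28 (4.31-fold higher).

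The next steps of the pathway differed in their counts. Vesicle transport between the ER and the Golgi had a median of 0.42 over 52 detected of 53 listed genes, with 41 above 0, 7 at least 2-fold higher and none 2-fold lower. Kdelr3, a receptor that returns ER proteins from the Golgi, lay at 4.96 in control and 6.72 with fructose (3.38-fold higher). Sec24d, a cargo-binding subunit of the COPII coat, lay at 8.05 and 9.67, and Sec22b, a SNARE of ER vesicles, at 7.14 and 8.77. The other members past 2-fold were Arfgap3 (log2 difference 1.38), Stx5a (1.22), Tmed3 (1.17) and Yipf5 (1.04). Protein translocation into the ER had a median of 0.31 over 27 detected genes and 1 member past 2-fold, Hspa13, an Hsp70-type ATPase (6.33 and 7.65). N-glycosylation enzymes had a median of -0.01 over 36 detected genes (0.04 with median centring), with Magt1 at least 2-fold higher (1.04) and Tusc3 (-1.40) and Man2a1 (-1.11) lower. Magt1 and Tusc3 encode alternative subunits of the same oligosaccharyltransferase complex, and their levels went from 7.78 to 8.83 and from 6.95 to 5.55.

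The list of the hexosamine pathway and nucleotide sugars had 4 of 23 detected members at least 2-fold higher and a median of 0.24. The hexosamine pathway makes the UDP-sugar used for glycosylation from fructose 6-phosphate. Gfpt1, its first and rate-limiting enzyme, lay at 6.94 in control and 9.08 with fructose (4.41-fold higher). Uap1, which catalyses the last step, lay at 7.50 and 8.60. Slc35b1, an ADP and ATP exchanger of the ER membrane, lay at 7.51 and 8.99 and Gmppb, which makes GDP-mannose, at 5.40 and 6.59. None of 25 detected heat shock proteins of the cytosol and mitochondria was past 2-fold in either direction, and their median was -0.06. Over all detected genes 3.10% were higher and 3.01% lower, so few would be in so short a list. Hspa1a, the heat-inducible Hsp70, lay at 5.07 and 5.75.

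**Figure D2:**
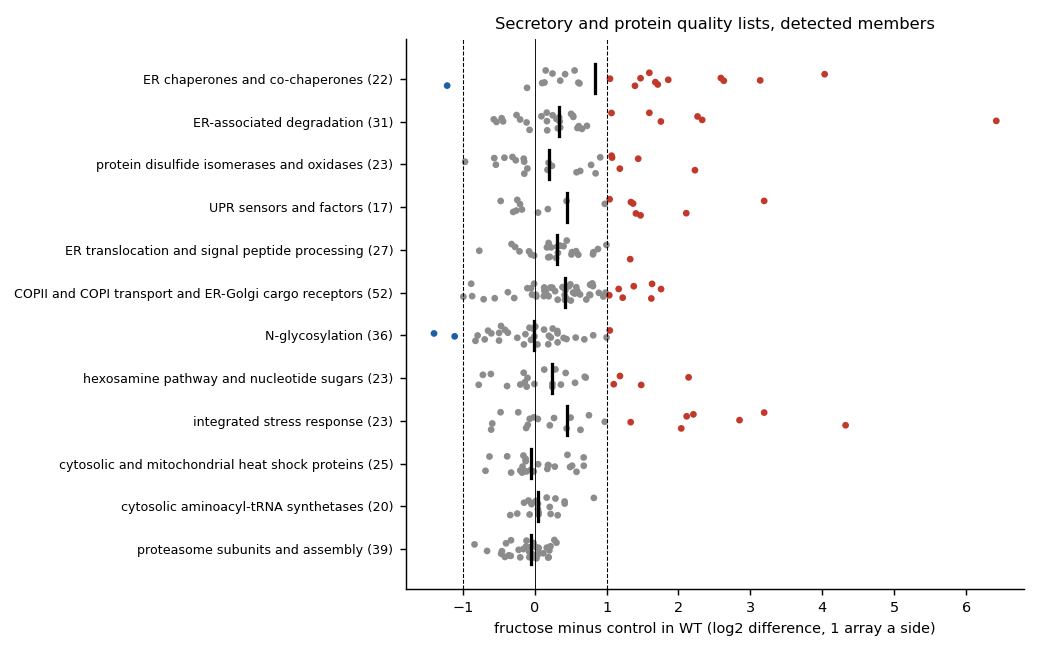
Log2 differences between the WT fructose and WT control arrays (horizontal axis) for the detected members of 12 lists, with the number detected in brackets, 1 point per gene, black bars at list medians and dashed lines at 2-fold. The medians run from 0.84 for ER chaperones to -0.06 for cytosolic and mitochondrial heat shock proteins.

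Promoter sequences from RefSeq (build GRCm38.p6), 250 bases before to 50 after each start, were searched on both strands for the elements that unfolded protein response factors are known to bind, since many members of the secretory lists differed in the same direction. The ER stress response element (ERSE, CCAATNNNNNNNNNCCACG) was in 0.119% of all 32851 promoters, in 18 of 8539 detected genes with a promoter (0.211%), in 9 of 255 genes at least 2-fold higher (3.53%) and in 1 of 242 at least 2-fold lower (0.413%). All 9 higher genes with an ERSE belonged to the secretory pathway lists, which held 11 of the 18 detected genes with this element. The stretches below show the element in capitals with up to 20 bases on each side, written 5′ to 3′ on the gene's strand, so that CGTGG before ATTGG is the element on the opposite strand. Derl3 is on the plus strand (chr10:75893222-75893280), as are Ero1b (chr13:12565662-12565720), Syvn1 (chr19:6046512-6046570), Dnajc3 (chr14:118937807-118937865), Hspa5 (chr2:34772005-34772063) and Pdia6 (chr12:17266471-17266529). Hsp90b1 (chr10:86705618-86705676 and chr10:86705513-86705571), Calr (chr8:84847055-84847113) and Canx (chr11:50325780-50325838) are on the minus strand. Creld2 on the plus strand and its neighbour Alg12 on the minus strand share 1 element between them (chr15:88819500-88819558). They are printed in the order of their WT differences.
Derl3: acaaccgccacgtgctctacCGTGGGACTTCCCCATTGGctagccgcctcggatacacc
Creld2: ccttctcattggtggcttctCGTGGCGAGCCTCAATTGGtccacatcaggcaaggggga
Ero1b: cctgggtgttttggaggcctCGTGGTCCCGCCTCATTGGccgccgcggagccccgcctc
Hsp90b1 far element: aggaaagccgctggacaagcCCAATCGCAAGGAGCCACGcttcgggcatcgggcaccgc
Hsp90b1 near element: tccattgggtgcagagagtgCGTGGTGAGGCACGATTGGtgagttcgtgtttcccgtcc
Syvn1: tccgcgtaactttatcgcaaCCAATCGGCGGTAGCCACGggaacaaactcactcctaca
Dnajc3: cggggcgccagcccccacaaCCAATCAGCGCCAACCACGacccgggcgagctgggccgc
Hspa5: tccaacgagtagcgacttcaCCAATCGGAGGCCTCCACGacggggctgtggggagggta
Pdia6: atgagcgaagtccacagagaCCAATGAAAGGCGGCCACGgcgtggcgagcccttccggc
Calr: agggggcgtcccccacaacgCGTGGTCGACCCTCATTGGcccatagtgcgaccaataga
Alg12: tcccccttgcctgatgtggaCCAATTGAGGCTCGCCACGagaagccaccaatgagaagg
Canx: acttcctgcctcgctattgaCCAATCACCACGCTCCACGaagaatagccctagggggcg

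The log2 difference of the 18 genes with an ERSE ran from 6.42 for Derl3 to -1.33 for Spats2l, with a median of 0.95 and 16 above 0. Creld2, a chaperone-associated ER protein, was higher by 3.14 and Alg12, a mannosyltransferase that shares the same intergenic element, by 0.81. Calr, calreticulin, was higher by 1.05 (levels 11.01 and 12.06), whereas Canx, its membrane-bound counterpart calnexin, differed by 0.15 (11.06 and 11.21) with the complete element in its window. In Chrebp-KO arrays the 18 genes had a median of 0.63, with 16 above 0 and 6 at least 2-fold higher. A match describes letters in a window and shows no binding.

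Other elements of the same response were counted in the same way. ERSE-II (ATTGGNCCACG) was in 0.0365% of all promoters and in 9 detected genes, of which Herpud1 (2.26) and Dnajb11 (1.59) were at least 2-fold higher. The unfolded protein response element (UPRE, TGACGTGG) was in 0.676% of all promoters, in 1.08% of detected, 3.14% of higher and 0.413% of lower genes. Of its 92 detected holders 8 were at least 2-fold higher, and the list of ER to Golgi transport held 8 of the 92. Kdelr3 and Sec24d are printed as the transport genes with the largest differences among the holders of a UPRE, with the UPRE in capitals. Both genes are on the plus strand (chr15:79516358-79516405 and chr3:123267450-123267495). The UPRE of Kdelr3 is read on the strand opposite to the gene and that of Sec24d on the gene's strand. Beside them is the ERSE-II of Herpud1 (plus strand, chr8:94386357-94386407).
Kdelr3: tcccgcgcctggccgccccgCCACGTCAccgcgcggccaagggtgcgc
Sec24d: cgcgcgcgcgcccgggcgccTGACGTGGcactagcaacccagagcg
Herpud1: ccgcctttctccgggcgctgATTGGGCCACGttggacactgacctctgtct

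The list of the integrated stress response, with stress genes downstream of ATF4, had 7 of 23 detected members at least 2-fold higher and none lower. Of the 23, 15 lay above 0 and 8 below, with a median of 0.44 and a mean of 0.86. Its highest member was Fgf21 (4.32), also counted with the hepatokines, and the median without it was 0.36. Ddit3, the transcription factor CHOP, lay at 7.56 in control and 10.75 with fructose (9.14-fold higher), and Atf3 at 8.19 and 11.04 (7.20-fold higher). Chac1, which degrades glutathione, lay at 7.13 and 9.33 and Ppp1r15a, the GADD34 subunit that dephosphorylates eIF2-alpha, at 6.96 and 9.07. Atf4 itself lay at 8.82 and 9.80, just under 2-fold. The list of amino acid synthesis genes that ATF4 also drives had 20 detected members, 15 above 0 and 5 below, with a median of 0.15. Of these 2 were at least 2-fold higher and 1 lower, beside 3.10% and 3.01% of all detected genes. Asns, asparagine synthetase, lay at 8.77 and 8.88, Phgdh at 5.22 and 5.25 and Psat1 at 7.19 and 7.24. The members past 2-fold were Aldh1l2, a mitochondrial folate enzyme (4.10, below background, and 6.42, at least 3.15-fold higher), Aldh18a1, of proline synthesis (log2 difference 1.17), and Gpt2 in the other direction (-1.24). Cytosolic aminoacyl-tRNA synthetases, a further ATF4-driven family, had a median of 0.05 over 20 detected genes and none past 2-fold. At the shares over all detected genes few would be past 2-fold in so short a list.

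An ATF4-type element (TGATGNAA) was in 3.97% of all promoters, in 2.95% of detected genes, in 15 of the 255 higher genes (5.88%) and in 2.48% of lower genes. Its 252 detected holders had a median difference of 0.03, near that of all genes. The higher holders included the hormone genes Fgf21, Angptl8 and Inhbe, the stress genes Atf3, Chac1, Nupr1, Trib3 and Herpud1, and G6pc. The windows of 4 of them are shown with the element in capitals, read on the strand opposite to the gene: Fgf21 (minus strand, chr7:45615602-45615649), Atf3 (minus strand, chr1:191183416-191183463), Chac1 (plus strand, chr2:119351029-119351076) and Nupr1 (minus strand, chr7:126625553-126625600).
Fgf21: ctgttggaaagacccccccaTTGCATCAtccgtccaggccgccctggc
Atf3: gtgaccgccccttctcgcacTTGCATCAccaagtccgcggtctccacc
Chac1: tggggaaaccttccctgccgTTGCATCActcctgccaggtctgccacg
Nupr1: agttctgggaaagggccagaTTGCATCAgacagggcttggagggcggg

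The other elements searched, on both strands, were as follows. The E-box CACGTG was in 7.15% of all promoters, in 1021 of 8539 detected genes, 16.5% of higher and 9.50% of lower genes, and the CRE TGACGTCA, which shares its first letters with the UPRE, in 1.79%, 3.55%, 1.57% and 3.31%. The antioxidant element TGACNNNGC, which can overlap a UPRE, was in 12.4% of all, 16.8% of detected, 18.8% of higher and 13.2% of lower genes. The heat shock element GAANNTTCNNGAA was in 0.603%, 0.609%, 0.784% and 1.24%, the interferon element TTTCNNTTTC in 3.44%, 3.75%, 4.71% and 2.48%, the D-box TTANGTAA in 2.32%, 1.94%, 1.57% and 1.24%, and the NF-kB element GGGANTTTCC in 0.411%, 0.550%, 1.18% and 0.413%. A carbohydrate response element type (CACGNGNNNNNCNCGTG), a pair of E-box-like parts with 5 bases between them, was in 0.0457% of all promoters and in 5 detected genes, of which Crybg3 was at least 2-fold higher (1.49). Pklr, liver pyruvate kinase, holds it and lay at 11.11 in control and 10.79 with fructose. Its window is shown with the element in capitals (plus strand, chr3:89136433-89136489).
Pklr: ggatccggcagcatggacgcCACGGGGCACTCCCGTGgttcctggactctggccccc

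**Figure D3:**
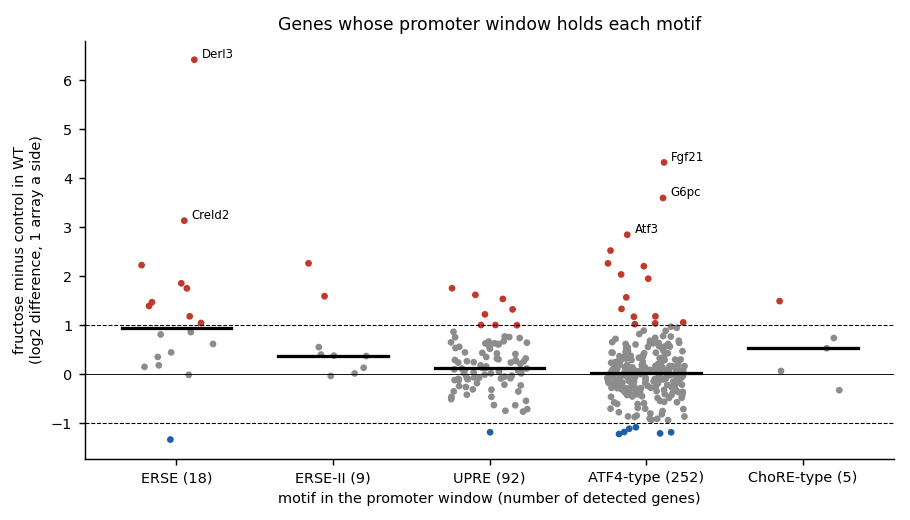
Log2 differences between the WT fructose and WT control arrays (vertical axis) for detected genes whose promoter window holds each of 5 elements (horizontal axis, number of genes in brackets), with black bars at the medians and dashed lines at 2-fold. The 18 genes with an ERSE have a median of 0.95 and the 252 with an ATF4-type element a median of 0.03.

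Secreted signals were among the largest differences. The list of hepatokines and secreted hormones had 5 of 24 detected members at least 2-fold higher, none lower, a median of 0.20 and a mean of 0.60. Fgf21, a fasting and sugar-responsive hormone, lay at 4.95 in control, close to the background level, and at 9.28 with fructose. Angptl8, which restrains lipoprotein lipase, lay at 8.70 and 11.23 (5.76-fold higher), and Adm, the vasodilator adrenomedullin, at 6.82 and 9.50 (6.42-fold higher). Inhbe, an activin subunit gene of the liver, lay at 6.74 and 8.31 and Vegfa, an endothelial growth factor, at 8.95 and 10.49. Hamp, the iron hormone hepcidin, lay at 10.08 and 12.06 (3.93-fold higher), while Hjv, the hemojuvelin co-receptor that drives hepcidin transcription, went the other way, from 7.65 to 5.49 (4.47-fold lower). Transcripts of Hamp and its copy Hamp2 are alike and can share probes.

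Genes known as targets of hypoxia-inducible factors had 6 of 20 detected members at least 2-fold higher and 18 above 0, with a median of 0.38. Besides Adm and Vegfa they were Pfkfb3, which makes the glycolytic activator fructose 2,6-bisphosphate (5.09 and 6.99, 3.75-fold higher), Egln3, an oxygen-sensing prolyl hydroxylase (8.30 and 10.15, 3.59-fold higher), Ero1a, also counted with oxidative folding (7.89 and 9.33), and P4ha1, a collagen prolyl hydroxylase (5.95 and 7.14). Bnip3, a mitophagy receptor and common hypoxia marker, lay at 8.22 and 8.67, a 1.36-fold difference. The list median was 0.17 with no filter on dim genes and the list mean was 0.63.

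Several transport families held genes of high rank. Slc20a1, a sodium-phosphate cotransporter, lay at 7.39 in control and 10.18 with fructose (6.90-fold higher), while its paralogue Slc20a2 lay at 11.05 and 10.24. A list of phosphate, citrate and pyrophosphate transporters, written after these values were seen, had 6 of 12 detected members at least 2-fold higher, none 2-fold lower and a median of 0.96. They included Ank, a pyrophosphate exporter (6.41 and 8.20), Slc17a4, an intestinal and hepatic anion transporter (5.52 and 7.43), and Slc13a5, the citrate importer of hepatocytes (8.88 and 10.25). Slc25a47, a liver-specific mitochondrial carrier, lay at 6.78 and 10.16 (10.4-fold higher). Of the 32 detected mitochondrial carriers 2 were at least 2-fold higher and 3 lower, the latter being Slc25a4, an ADP and ATP carrier (5.93 and 4.22, at least 2.24-fold lower), Slc25a24 (8.83 and 7.52) and Slc25a12, the aspartate-glutamate carrier aralar (8.35 and 7.08), and the list median was -0.21. Among zinc transporters Slc39a6 (7.83 and 9.48), Slc39a10 (4.69, below background, and 6.04) and Slc30a5, which loads zinc into the secretory pathway (7.46 and 8.47), were past 2-fold, while Mt1, metallothionein 1, lay at 11.52 and 11.67.

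Lipid-binding genes differed within families. Osbpl3, an oxysterol-binding protein, lay at 8.16 in control and at 4.71 with fructose, below the background level and at least 10.5-fold lower, the lowest rank of all genes once such values are raised to it. Its relatives Osbp (8.31 and 9.49), Osbpl8 (8.09 and 9.12) and Osbpl2 (8.59 and 9.59) were 2.27-fold, 2.05-fold and 2.00-fold higher. Mfsd2a, which carries lysophosphatidylcholine with omega-3 fatty acids into cells, lay at 5.49 and 8.21 (6.62-fold higher). Among fatty acid-binding proteins Fabp4 (4.83 and 6.81), Fabp5 (4.90 and 6.40) and Fabp1, the liver form (9.22 and 10.51), were past 2-fold, and Fabp7 (6.73 and 5.86) was lower by under 2-fold. Cidec, a lipid droplet fusion protein, lay at 6.06 and 8.78 (6.58-fold higher), whereas Plin2, the main droplet coat protein of hepatocytes, lay at 10.64 in control with a difference of -0.64. The lists of oxysterol-binding proteins (3 of 8 detected members at least 2-fold higher, 1 lower) and of fatty acid-binding proteins with lysolipid transport (4 of 11 higher) were also written after their values were seen.

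Enzymes of sugar and lipid metabolism differed by list. De novo lipogenesis had 6 of 17 detected members at least 2-fold higher, none lower and a median of 0.77, among them Fasn, fatty acid synthase (7.37 and 9.13). Gluconeogenesis had 4 of 17 higher, 1 lower and a median of 0.52, and glycogen metabolism 1 of 12 higher, 1 lower and a median of 0.45, with Gys2, liver glycogen synthase, at 6.76 and 8.97. The fructolysis list, of which 6 of 10 genes had a value, had 2 of 6 higher and 1 lower. Its lower member was Mpi, mannose phosphate isomerase (7.35 and 6.07), which is not an enzyme of fructolysis. The highest member was Tkfc, triokinase (8.92 and 10.20). The list median was 0.57, or 0.80 with the stricter filter on dim genes, and the mean was 0.28. The TCA cycle and pentose phosphate lists had medians of 0.05 and -0.05 (0.00 with median centring), each with 1 member at least 2-fold higher and none lower. Pdhb, the beta subunit of pyruvate dehydrogenase E1, lay at 9.0 in control and 11.31 with fructose (4.97-fold higher), while its partner Pdha1 lay at 8.25 and 8.10 and the other 22 detected genes of the TCA cycle list stayed under 2-fold. In the pentose phosphate list Rpia, ribose 5-phosphate isomerase, lay at 5.39 and 6.84 (2.73-fold higher) and Pgd at 10.94 and 10.95. Prkab2, a regulatory subunit of AMP-activated kinase, lay at 6.97 and 8.64 (3.19-fold higher), against 8.54 and 8.80 for its paralogue Prkab1. The catalytic subunit gene Prkaa2 lay at 9.06 and 10.09 and Prkaa1 at 9.26 and 9.20. Insig1, which retains SREBP in the ER, lay at 8.85 and 10.20 and Mvd, of the mevalonate pathway, at 5.55 and 6.59, the members past 2-fold among 27 detected cholesterol genes (median 0.14). Cpt1a, which admits fatty acids to mitochondria, lay at 8.92 and 7.47 (2.72-fold lower) and Gpam, which starts glycerolipid synthesis, at 9.19 and 8.08 (2.16-fold lower).

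Amino acid enzymes included Tat, tyrosine aminotransferase (9.66 and 11.87), Oat, ornithine aminotransferase (6.74 and 8.50), Hpd (9.93 and 11.18) and Glul, glutamine synthetase (5.95 and 7.0). With Cps1, Haao, Agxt and Upb1 they made 8 of 44 detected members at least 2-fold higher, with none lower. Detoxification genes differed in both directions. Cyp2b10, a classical target of the receptor CAR, lay at 6.84 and 9.84 (8.04-fold higher), while Cyp3a11 lay at 11.08 and 11.15, Nr1i3, which encodes CAR, at 4.97 and 5.26, and of 31 detected enzymes of these P450 families 1 was at least 2-fold higher and 2 were lower. Cyp4f15 lay at 5.40 and 8.85 (10.9-fold higher), the only one of 12 detected Cyp4 genes past 2-fold. P450 genes of a subfamily are alike in sequence and can share probes. Of 35 detected enzymes of phase II conjugation, which attach polar groups, 4 were at least 2-fold higher, Inmt (5.83 and 7.62), Sult1a1 (6.71 and 8.0), Sult2a8 (8.33 and 9.52) and Papss1 (5.96 and 7.05). Ugt2b36 (8.83 and 7.13) and Gsta4 (10.12 and 8.90) were at least 2-fold lower, and the list median was -0.15 while its mean was 0.04. Bile acid uptake and export genes Slco1b2 (6.26 and 8.07), Abcb11 (6.84 and 8.16) and Slc10a1 (8.63 and 9.75) were 3.50-fold, 2.49-fold and 2.19-fold higher, and 4 of the 26 detected transporters were at least 2-fold lower, among them Abcg2 (8.89 and 7.67) and Slco2a1 (10.09 and 9.01). With dim values raised to the background level 3 of them remained, without Slc10a5 (5.13 and 4.02), which was at least 1.29-fold lower.

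Immune mediators split by gene. Il23a, the p19 subunit of interleukin 23, lay at 3.76 in control, below the background level, and at 9.13 with fructose, at least 20.7-fold higher and second in rank. Nos2, inducible nitric oxide synthase, lay at 5.17 and 8.93 (13.6-fold higher) and Il1f9, interleukin 36 gamma, at 5.32 and 8.12 (6.95-fold higher). Il6 was below the background level on both arrays (3.27 and 3.49) and Tnf lay at 5.95 and 5.79. Of 24 detected cytokines and mediators 5 were at least 2-fold higher and none lower (median 0.32, mean 0.63). Against the background level 3 of the 5 were past 2-fold, Il23a, Nos2 and Il1f9, while Il1a (4.41 and 5.45) was at least 1.61-fold and Il1b (4.13 and 5.33) at least 1.48-fold higher. Of 24 detected chemokines and receptors 4 were at least 2-fold higher as measured, and 3 with dim values raised. The 3 were Cxcl2 (4.90 and 7.10), Ccl3 (5.49 and 7.24) and Ccl5 (8.87 and 10.34). Cxcl3 (4.32, below background, and 5.43) was at least 1.59-fold higher. Cxcl1 lay at 9.02 and 8.98 and Ccl2 at 10.04 and 10.06. Macrophage markers, which could mark cells that make such mediators, summed to 12.07 in control and 11.61 with fructose, with 1 of 15 detected members at least 2-fold lower (Mpeg1, 10.24 and 8.65) and none higher. Of these 15 markers 10 lay above 0, with a median difference of 0.20 and a mean of -0.05. T and NK markers other than Ccl5 that were detected differed by under 2-fold, and the part of these cells in the mediators' differences was not tested.

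Interferon-stimulated genes lay lower, with 29 of 33 detected members below 0, 3 at least 2-fold lower and a median of -0.36. Oligoadenylate synthetases are antiviral enzymes that were listed as a family after their values were seen, so their median cannot be compared with that of the interferon list. Of 7 detected members 3 were at least 2-fold lower and 1 lay above 0, with a median of -0.94. Oas1g lay at 8.24 in control and 6.28 with fructose (3.88-fold lower), Oas3 at 8.41 and 6.80 and Oasl2 at 10.37 and 8.79. Oas3 and Oasl2 are also counted among the interferon-stimulated genes at least 2-fold lower. The paralogue Oasl1 lay at 9.96 and 10.16. Isg15 lay at 11.14 and 10.80 and Irf7, the interferon-amplifying transcription factor, at 10.97 and 10.10. Ifi27l2b, which is in neither list but among the 5 lowest genes, lay at 10.33 and 7.06 (9.66-fold lower).

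Lysosomal genes had a median of -0.40 over 43 detected of 50 listed genes, with 33 below 0, 2 at least 2-fold lower and 1 higher. Asah1, acid ceramidase, lay at 8.68 in control and 7.10 with fructose (2.98-fold lower) and Ppt1, palmitoyl-protein thioesterase, at 9.02 and 7.62. Ifi30, a lysosomal thiol reductase, was the exception at 7.72 and 10.20 (5.56-fold higher). Tfeb, the master regulator of lysosomal genes, was below the background level on both arrays (4.37 and 4.31). A list of glycan and sulfate hydrolases written after values were seen had 6 of 18 detected members at least 2-fold lower (5 with dim values raised, without Neu2, at 5.02 and 3.45), none higher and a median of -0.64, led by Sgsh, heparan N-sulfatase, at 7.96 and 6.12 (3.58-fold lower). Smpd3, the neutral sphingomyelinase, lay at 8.25 and 5.72 (5.78-fold lower), and with Asah1 and Asah2 (7.42 and 6.10) it made 3 of 31 detected sphingolipid genes at least 2-fold lower, with none higher.

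Junction and surface genes of epithelia differed by list. Brush-border and intestinal-type genes had 4 of 12 detected members at least 2-fold lower and 1 higher, with 5 above and 7 below 0, a median of -0.17 and a mean of -0.41. Cdh17, liver-intestine cadherin, lay at 8.04 in control and 4.16 with fructose, below the background level and at least 9.70-fold lower, and Vil1, the microvillus protein villin, at 6.37 and 4.27, at least 3.04-fold lower. Muc13, a transmembrane mucin, lay in the opposite order, at 4.73, below background, and 7.07. Claudins and tight junction genes had a median of -0.37 with 18 of 20 detected members below 0 and 3 at least 2-fold lower, Marveld2 (7.96 and 6.82), Cgn (8.0 and 6.87) and Cldn1 (9.13 and 8.02). Annexins and S100 proteins had a median of -0.53 with 13 of 14 detected members below 0 and 3 at least 2-fold lower (2 with dim values raised). They were Anxa3 (9.26 and 7.43), S100a6 (6.25 and 4.47) and Anxa9 (5.50 and 3.89, below background and at least 1.67-fold lower). The mean of that list was -0.74. Cholangiocyte markers, which could carry junction genes, summed to 11.59 and 11.28, with Krt19, Krt7 and Epcam below the background level on both arrays. Genes of the skin and airway barrier, listed after their values were seen, had 5 of 17 detected members at least 2-fold higher (4 with dim values raised, without Grhl1) and 3 lower, with 8 above and 9 below 0, a median of -0.02 and a mean of 0.38. They included Prss8, a membrane serine protease (6.97 and 10.20, 9.34-fold higher), its substrate channel subunit Scnn1a (5.48 and 7.89) and Aloxe3, an epidermal lipoxygenase (5.11 and 8.32), beside the desmosomal genes Ppl (7.22 and 5.57) and Jup (8.69 and 7.04), which were each 3.14-fold lower.

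Plasma protein lists differed. Complement and coagulation genes had a median of -0.37 over 36 detected of 44 listed genes, with 28 below 0. One member passed 2-fold, Pros1, the anticoagulant protein S, at 7.36 and 5.53 (3.57-fold lower). Acute phase proteins had 12 of 25 detected members above 0 and 13 below, a median of -0.15, and 1 past 2-fold in each direction, Hamp higher and Steap4, a metalloreductase (10.47 and 9.25), lower. Apolipoproteins and genes of VLDL assembly had 9 of 18 above 0 and 9 below, a median of 0.01, 1 at least 2-fold higher and 2 lower. Serpina7, which encodes thyroxine-binding globulin, lay at 10.96 and 9.13 (3.55-fold lower), and the apolipoprotein genes Apon (9.17 and 7.20) and Apof (10.62 and 9.50) were 3.93-fold and 2.17-fold lower while Apoa4 (9.94 and 11.01) was 2.09-fold higher and Apob lay at 11.11 and 10.98. The pantetheinases Vnn1 (8.52 and 6.58) and Vnn3 (9.42 and 7.21), which recycle coenzyme A precursors and are PPAR-alpha targets, were 3.84-fold and 4.64-fold lower.

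Signalling and transcription factor genes were led by single members. Rgs16, a brake on G-protein signalling, lay at 6.82 in control and 9.97 with fructose (8.84-fold higher), 1 of 3 detected members of its family. Klf10 lay at 6.06 and 9.39 and Klf9 at 7.91 and 9.02, whereas Klf15, a fasting factor, lay at 5.43 and 4.02, at least 1.59-fold lower. Erbb3, a receptor of neuregulins, lay at 8.76 and 6.97 (3.45-fold lower) and its ligand gene Nrg1 at 9.37 and 7.73 (3.12-fold lower), while Egfr lay at 10.08 and 10.01. Nfil3, a repressor of D-box genes, lay at 6.65 and 8.62 and Per1, of the clock's negative limb, at 8.09 and 9.52, with the activator Arntl at 6.19 and 6.0. Among 31 detected nuclear receptors none was at least 2-fold higher, and Rarb (6.84 and 5.35) and Pparg (6.94 and 5.91) were lower. The shares over all detected genes were 3.10% higher and 3.01% lower.

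**Figure D4:**
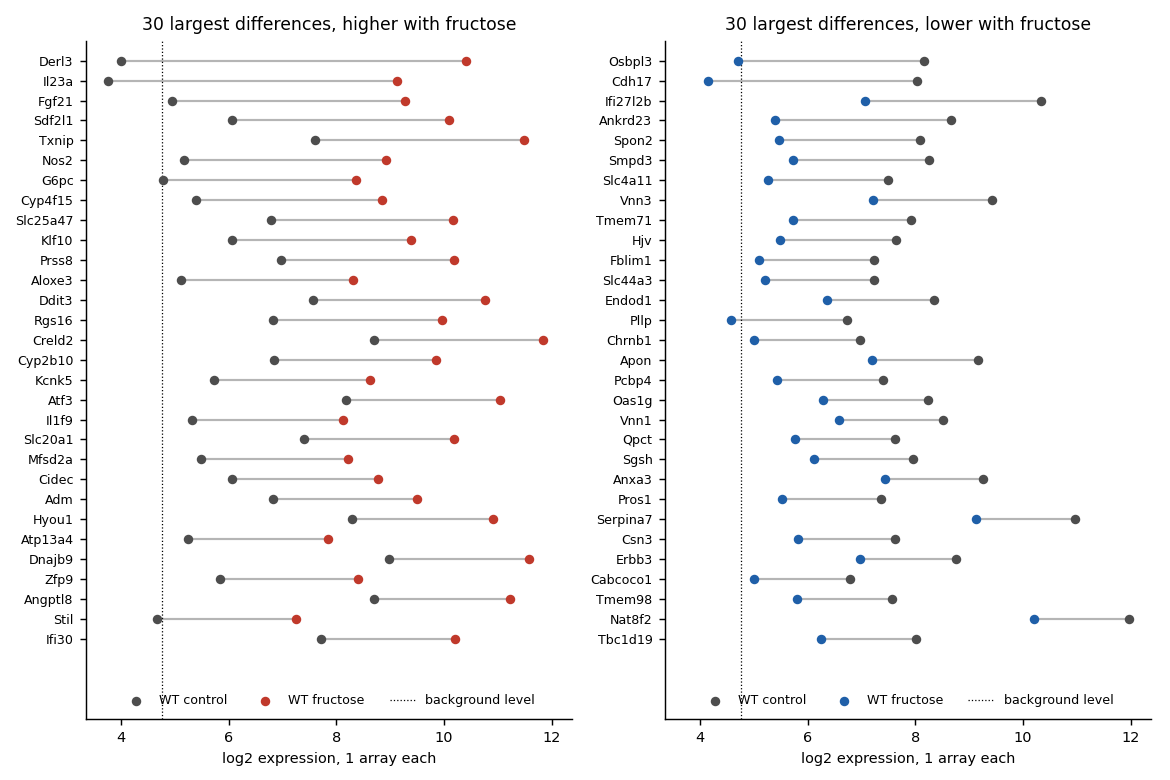
Log2 levels on the WT control array (grey) and the WT fructose array (red or blue) for the 30 genes ranked highest and the 30 ranked lowest by difference, ranked with values under the background level (dotted line, 4.76) raised to it. Of the 30 higher genes 3 start below the dotted line and of the 30 lower genes 3 end below it.

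Housekeeping families were counted in the same way. None of 35 detected cytosolic ribosomal protein genes, 43 oxidative phosphorylation subunits and 26 ribosome biogenesis genes was at least 2-fold apart in either direction. Their medians were -0.21, -0.08 and 0.09. With 3.10% of all detected genes higher and 3.01% lower, few members past 2-fold would be found in lists of this size anyway. Of the ribosomal protein genes 31 lay below 0, with Rps6 at 11.70 in control and 11.46 with fructose. Actb, beta-actin, lay at 9.28 and 9.31, and among 28 detected cytoskeletal genes Tpm2 (6.19 and 4.19, at least 2.68-fold lower) and Actn1 (10.44 and 9.40) were at least 2-fold lower and Krt23 (5.61 and 6.75) was higher.

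**Figure D5:**
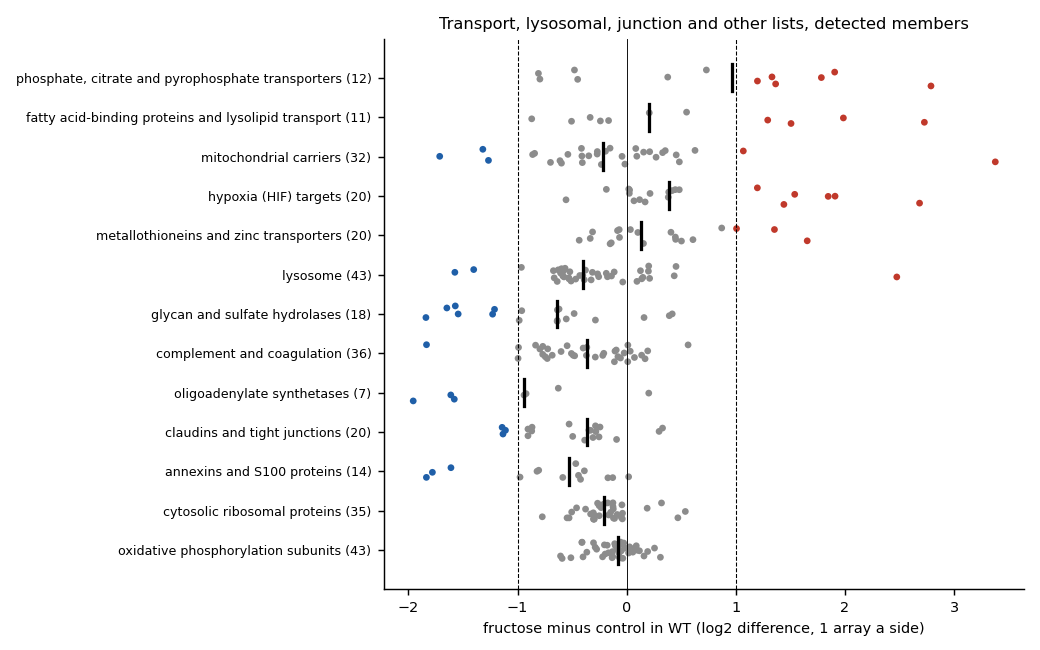
Log2 differences between the WT fructose and WT control arrays (horizontal axis) for the detected members of 13 lists, with the number detected in brackets, 1 point per gene, black bars at list medians and dashed lines at 2-fold. The medians run from 0.96 for phosphate, citrate and pyrophosphate transporters to -0.94 for oligoadenylate synthetases, both lists written after values were seen.

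The 85 lists were written with the design but with earlier results of these data known, so their shares are no independent result. Of their members 1691 were detected. Of these 136 (8.04%) were at least 2-fold higher and 63 (3.73%) at least 2-fold lower, beside 3.10% and 3.01% of all detected genes. Those lists leave out 199 of the higher and 263 of the lower genes, among them members of the 7 lists added later. Of 5792 pairs of detected protein-coding genes that neighbour each other in RefSeq's GRCm38.p6 annotation, 9 were both at least 2-fold higher, 11 both lower and 7 in opposite directions. Pairs of related genes were among them, Hamp2 with Hamp, Il1a with Il1b, Vnn3 with Vnn1, Cbr1 with Cbr3, Nat8f2 with Nat8f4 and Apon with Apof. Acly, which makes cytosolic acetyl-CoA, had a difference of 1.81 and its neighbour Ttc25 1.31, and Pdhb had 2.31 and its neighbour Kctd6 1.09. Txnip (3.88) and Hjv (-2.16) are neighbours in opposite directions. Some such pairs are found with no link between neighbours, since 3.10% of all detected genes were higher and 3.01% lower. Whether neighbours go together more often than other genes was not tested.

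Set beside the Chrebp-KO arrays, most of these differences had the same sign. Of the 335 genes at least 2-fold higher in WT 324 lay above 0 in KO, with a median of 0.90 against 1.30 in WT, and of the 326 lower genes 321 lay below 0, with medians of -0.83 and -1.20. The WT medians follow from the choice of genes by their WT values, so a smaller KO median shows no difference between genotypes. All 30 of the highest and all 30 of the lowest genes had the same sign in KO, and 23 and 25 of them were at least 2-fold apart there. Among the highest genes the KO differences ran from 5.17 for Derl3 and 3.65 for Il1f9 to 0.82 for Fgf21, 0.62 for Klf10 and 0.11 for G6pc. No test of the difference between genotypes could be made from 1 array in each group.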

How the data were processed

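Each array's deposited column holds log2 expression for 41345 probe sets. Per the submitters' processing notes the authors used RMA (robust multi-array averaging) and R 3.4.0. RMA makes the arrays' distributions alike, so a shift shared by all genes cannot be seen. Array build and annotation: not given in the sources used here. The platform's gene table lists 25335 probe sets, 23521 with 1 gene and 1814 with several, and 16010 are unnamed here. Probe sets of 1 gene were averaged into 22180 genes, 1082 with more than 1 probe set, and 23328 probe sets were matched by Entrez number to RefSeq (GRCm38.p6) names. Genes of families with like sequences can share probes. Each array had 10368 to 10447 genes above the background level. Precision is limited by the number of arrays.

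Named genes are the 30 largest differences in each direction (without olfactory or vomeronasal receptors, predicted genes and small RNAs), members marked as key in the lists, and list members past 2-fold. The genes and lists were chosen with earlier results of these data known: 85 lists with the design, 7 more after their values were seen. The 85 lists hold 2165 different members. Values were found for 1996, 66 were measured only together with other genes and 103 were not analysed here. Alternatives were median centring, repeated quantile normalization, loess (span 0.3), other filters on dim genes, the brightest probe set, dim values raised to the background level, 1.5-fold and 3-fold thresholds, the mean, and lists without their most different member. Counting was tested on simulated data with Python 3.11.15, numpy 2.4.6 and pandas 2.3.3. Protein sequences were not used here.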

Additional observations from a re-analysis of the deposited data

Results flagged for a closer look

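The fructose difference had opposite signs in the genotypes for 16 detected genes past 2-fold in WT, 11 higher and 5 lower there, and with 1 array in each group the difference between genotypes was not tested. Tkfc, triokinase of fructolysis, had a log2 difference of 1.28 in WT and -0.68 in KO. Slc2a2, the GLUT2 transporter, had 1.04 and -0.98, with levels of 7.66 and 8.70 in WT and 7.53 and 6.55 in KO. Acly had 1.81 and -0.25, and Acaca, acetyl-CoA carboxylase, 1.82 and -0.20. Furin, a protease of the secretory pathway, had 1.19 and -0.21. Between probe sets of the same gene the SD of the WT difference was 0.33, over 310 genes with several detected probe sets. The KO differences of Acly, Acaca and Furin were smaller than that. In the other 11 genes the KO difference was smaller than 0.19, the SD of the olfactory receptor genes. Those higher in WT were Aacs (1.52 and -0.0145), Ttc25 (1.31 and -0.00928), Fes (1.23 and -0.0800), Tbx10 (1.08 and -0.0477), Slc25a44 (1.07 and -0.17) and Mvd (1.04 and -0.0298). Those lower in WT were Pisd-ps3 (-1.26 and 0.0916), Klhdc7a (-1.17 and 0.0571), Cldn1 (-1.11 and 0.15), Serpinb6b (-1.09 and 0.14) and Ifit3b (-1.08 and 0.0548).

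Probe sets outside the gene counts had shares past 2-fold a little below the 3.10% higher and 3.01% lower of detected genes. Among 832 detected probe sets that map to several genes, 20 (2.40%) were at least 2-fold higher with fructose in WT and 21 (2.52%) lower. Among 4663 detected probe sets with no gene name here, 132 (2.83%) were higher and 122 (2.62%) lower.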

How the results depend on the processing

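No paired analysis was possible because each group has 1 array and the labels carry no replicate numbers, and no array could be left out. The count of higher genes, 335, was 1023 at 1.5-fold and 103 at 3-fold, and that of lower genes, 326, was 1172 and 57, as the threshold itself sets. Under every other alternative run the counts stayed between 314 and 377 and between 274 and 345, and median centring, which moves all genes by 0.05, gave 377 and 274. Of the medians of 78 lists under the alternatives 675 values moved by less than 0.19, the SD of the olfactory receptor genes, and 27 by more. A change of sign was found for 30 values in 16 lists. Of these 27 moved by less than 0.19 and lay between -0.10 and 0.12. The other 3 were hexose transporters, -0.0191 with no filter on dim genes, macrophage markers, -0.0540 as a mean, and vanins with coenzyme A synthesis, -0.29 as a mean. The ER chaperone median of 0.84 was 0.56 with no filter on dim genes, 0.62 without its most different member and 1.05 with the stricter filter. For UPR sensors and factors the median of 0.44 was 0.18 with no filter, and for ER-associated degradation the mean was 0.63. The cause was not tested. All 60 named genes kept their direction.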

Other observations

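A few genes outside the lists and the ranking were chosen after their values were seen. Bhlha15, a transcription factor of secretory cells also called MIST1, lay below the background level in WT control (4.26) and at 6.31 with fructose, at least 2.91-fold higher. Clec4e, an innate immune receptor of macrophages, lay at 3.73, below background, and 6.29, at least 2.89-fold higher. Siah2, a ubiquitin ligase of the hypoxia pathway, lay at 4.65, below background, and 6.61, at least 3.59-fold higher. In KO the differences of Bhlha15, Clec4e and Siah2 were 0.57, 2.13 and 0.96.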
